A study of Mus musculus with 10 samples.

Results

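Epithelial-mesenchymal transition genes were followed through peak lists of open chromatin from liver tumours driven by MYC, with and without the chromatin remodelling subunit Arid1a. The set holds 8 genes of the mm10 RefSeq table, which were given by name: Snai1, Snai2, Zeb1, Zeb2, Twist1, Cdh1, Vim and Fn1. They are 8 of 21631 protein-coding genes on the autosomes and X. A gene was scored as having a peak in a library when at least 1 bp of a deposited peak lay inside the gene or within 10 kb of it. Across the 10 lists this gave 17 peak rows out of 61587, at 4 of the 8 genes.

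All mice were FVB and carried LAP-tta, a tetracycline-regulated activator that is made in the liver, and TRE-MYC, a MYC transgene that this activator switches on once doxycycline is removed. Homo tumours (n = 3, about 100 days of age) came from mice with 2 floxed Arid1a alleles and Alb-cre, a Cre recombinase under the albumin promoter that acts in hepatocytes and their precursors. Het tumours (n = 3, about 70 days) came from mice with 1 floxed allele and Alb-cre, and WT tumours (n = 4, about 55 days) from mice with 2 floxed alleles and no Cre. Frozen tumour pieces, collected when the animals died, were cut by the ATAC-seq transposase, which tags accessible DNA. Age and Cre differ along with genotype and cannot be told apart from it. The labels number the replicates without saying that each is a separate mouse.

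In an epithelial-mesenchymal transition, cells give up their junctions and polarity and take on the shape, motility and matrix of mesenchymal cells. Repressors of the Snail, ZEB and Twist families drive this programme. Snail and ZEB proteins bind E-boxes with the core letters CAGGTG, among them those at the promoter of the adhesion gene Cdh1. Hepatocytes are epithelial, while stellate cells, endothelial cells and leukocytes in the same tissue carry several of the mesenchymal genes. A whole tumour piece mixes these cells, so opening in fewer cells and weaker opening per cell cannot be told apart.

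Snai1 had more of the peak rows than any other gene of the set, 8 of 17, and its promoter sequence is printed here beside those of Twist1, Vim and Zeb2, which had no peak in any list. Each is the RefSeq window for GRCm38.p6 from 250 bases before to 50 bases after the annotated start, 5′ to 3′ on the strand of the gene. Of the 8 genes, 4 matched the promoter table, and Zeb2 is shown by the window at its outermost start. Capitals mark CAGGTG or its reverse complement CACCTG. The Snai1 window is chr2:167537945-167538244 (plus strand), that of Twist1 chr12:33957421-33957720 (plus strand), that of Vim chr2:13574061-13574360 (plus strand) and that of Zeb2 chr2:45117393-45117692 (minus strand).
Snai1: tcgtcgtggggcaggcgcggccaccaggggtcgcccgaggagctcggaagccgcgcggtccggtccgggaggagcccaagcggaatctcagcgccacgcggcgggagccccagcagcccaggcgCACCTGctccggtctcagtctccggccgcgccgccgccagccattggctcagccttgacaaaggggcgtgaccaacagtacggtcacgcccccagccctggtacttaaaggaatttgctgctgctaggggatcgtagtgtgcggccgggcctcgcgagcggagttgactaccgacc
Twist1: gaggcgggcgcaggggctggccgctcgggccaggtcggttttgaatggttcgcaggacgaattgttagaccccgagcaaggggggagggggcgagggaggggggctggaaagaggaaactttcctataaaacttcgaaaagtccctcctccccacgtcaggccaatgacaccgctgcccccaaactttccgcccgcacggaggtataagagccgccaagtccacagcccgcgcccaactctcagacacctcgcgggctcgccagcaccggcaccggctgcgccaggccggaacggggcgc
Vim: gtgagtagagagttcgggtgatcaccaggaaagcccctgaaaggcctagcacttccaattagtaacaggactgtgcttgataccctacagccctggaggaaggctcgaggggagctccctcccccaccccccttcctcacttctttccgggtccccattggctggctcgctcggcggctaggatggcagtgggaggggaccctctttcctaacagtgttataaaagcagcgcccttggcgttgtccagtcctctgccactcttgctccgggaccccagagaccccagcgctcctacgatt
Zeb2: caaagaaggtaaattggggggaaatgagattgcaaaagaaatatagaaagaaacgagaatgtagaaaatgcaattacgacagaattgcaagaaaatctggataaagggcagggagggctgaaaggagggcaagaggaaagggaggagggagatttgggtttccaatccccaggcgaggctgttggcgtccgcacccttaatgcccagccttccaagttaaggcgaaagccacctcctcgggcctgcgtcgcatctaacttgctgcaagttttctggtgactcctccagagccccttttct

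The Snai1 window holds 1 E-box of the pattern CANNTG on either strand, and its letters are CACCTG. It begins at base 125 of the window, 126 bp before the annotated start (mm10, chromosome 2, 167538069 to 167538074). CAGGTG in either direction was found in 20.3% of 32585 promoter windows of this length, and CANNTG, which includes it, in 72.3%. The windows printed for Twist1, Vim and Zeb2 hold neither. All 8 Snai1 peaks covered the E-box from end to end. A CCAAT box, found in 37.6% of windows, lies 84 bp before the start, reads ATTGG on the printed strand and was also covered by all 8 peaks. The window has no CACGTG, the E-box that MYC and MAX bind (7.20% of windows), no GGGCGG (35.9%), no TGANTCA (7.85%) and no TATAAA (13.7%).

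Base make-up differed among these promoters. The Snai1 window has 34 CpG dinucleotides and 70% G and C, more CpGs than 92.2% of windows. Twist1 has 27 CpGs, Vim 11 and Zeb2 9, against a median of 7 over all windows. Of the 1294 windows within 2 CpGs of Snai1, 78.7% overlapped a peak in at least 1 library, and of the 2210 within 2 CpGs of Twist1, 76.5%. The shares were 24.4% for windows like that of Vim and 13.3% for windows like the printed one of Zeb2. Zeb2 has 3 further windows in the table, 2 with 8 CpGs (9.30% of similar windows with a peak) and 1 with 19 CpGs (64.9%), and none overlapped a peak. Twist1 and the Zeb2 window with 19 CpGs were thus without a peak, although most windows of similar CpG count had one in some library.

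Snai1 encodes the zinc finger repressor Snail, and it had a peak in 2 of 3 Homo, 2 of 3 Het and 4 of 4 WT libraries. The deposited fold, the summit pileup over local background as the authors' caller gave it, was 5.56 in Homo 2 and 9.42 in Homo 3. It was 6.48 in Het 1 and 6.57 in Het 2. In the WT libraries it was 6.57, 7.60, 7.04 and 8.44 in replicate order. Homo 1 and Het 3 were the libraries without a Snai1 peak. The Homo values lay on either side of all the others. Both Het values were below every WT value, the higher Het value by less than the rounding shown (6.566 in Het 2, 6.571 in WT 1).

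**Figure D1:**
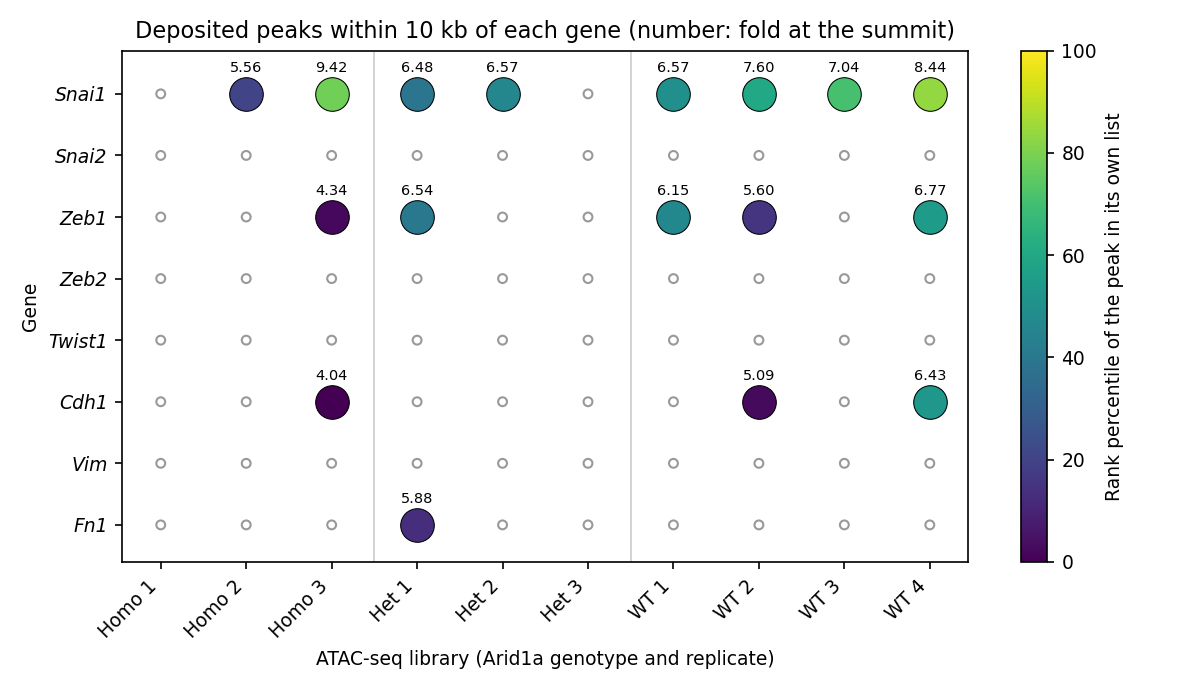
Peaks within 10 kb of each of the 8 genes (rows) in each library (columns, grouped as Homo, Het and WT). A filled circle is a deposited peak, with its fold printed above and its rank percentile within its own list as colour, and a small open circle is a library without one. Snai1 fills 8 of 10 columns, Zeb1 5, Cdh1 3 and Fn1 1, and the other genes fill none.

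Rank within a list places a peak among the others of its library, with 100 for the strongest by −log10 p. Snai1 stood at 20.2 in Homo 2 and 78.4 in Homo 3, at 38.7 and 46.3 in Het 1 and Het 2, and at 49.9, 60.1, 70.4 and 83.6 in WT 1 to WT 4. Both Het ranks were below all 4 WT ranks, and the Homo ranks lay on either side of the Het ranks. The lists differ in length, so these ranks describe each library and show no change between genotypes. Snai1 ranked highest in Homo 3 and WT 4 and lowest in Homo 2.

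The Snai1 peak lay in the same place in every library that had it. Its rows spanned 167537986 to 167538185 in Homo 2, 167537846 to 167538265 in Homo 3, 167537887 to 167538218 in Het 1 and 167537974 to 167538230 in Het 2. In WT 1 to WT 4 they spanned 167537911 to 167538266, 167537856 to 167538162, 167537848 to 167538216 and 167537902 to 167538305. A stretch of 177 bp, 167537986 to 167538162, was common to all 8. It holds the printed E-box, and the gene itself runs from 167538195 to 167542814. Summits lay 65 and 183 bp before the annotated start in Homo, 172 and 105 bp in Het, and 85, 185, 165 and 135 bp in WT.

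**Figure D2:**
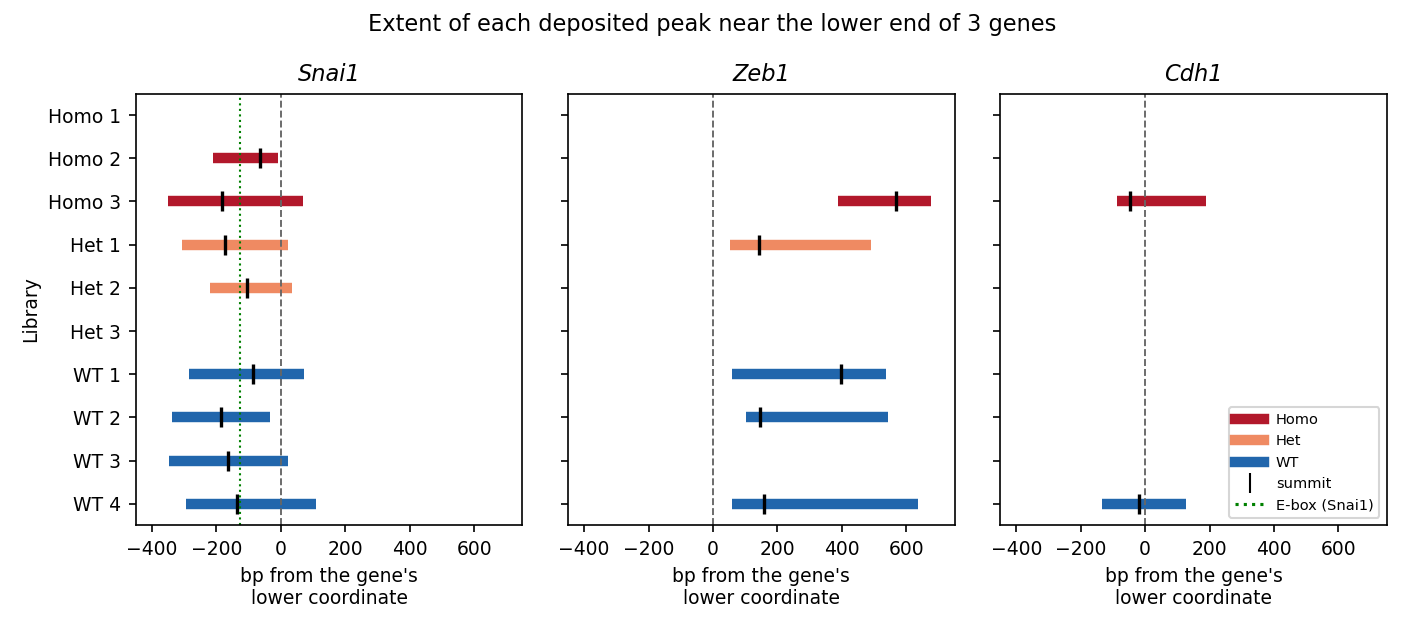
Extent (bar) and summit (black tick) of each peak near the lower coordinate of Snai1, Zeb1 and Cdh1, in bp from that coordinate, with 1 line per library in the order Homo, Het, WT. For Snai1 the dotted line marks the E-box 126 bp before the start, which every bar crosses, and summits lie between 185 and 65 bp before the start. The Zeb1 bar of Homo 3 starts 389 bp into the gene, and those of the other 4 libraries between 53 and 102 bp into it.

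The libraries differed in depth. The genome background of each library, in tags per 200 bp and recovered from the deposited fold and −log10 p, was 0.914, 0.464 and 1.608 in Homo 1 to Homo 3, 0.696, 0.655 and 0.738 in Het 1 to Het 3, and 1.745, 1.131, 0.985 and 1.403 in WT 1 to WT 4. The Snai1 summit held 8 and 28 tags in Homo 2 and Homo 3, 13 and 12 in Het 1 and Het 2, and 22, 18, 18 and 25 in WT 1 to WT 4. Divided by the background of its own library, the summit was 17.2 and 17.4 in Homo, 18.7 and 18.3 in Het, and 12.6, 15.9, 18.3 and 17.8 in WT. Means were 17.3 ± 0.121 in Homo (SD, n = 2), 18.5 ± 0.253 in Het (n = 2) and 16.2 ± 2.58 in WT (n = 4). Among libraries that reported the peak, its height relative to depth ranged over 12.6 to 18.7. The Homo values lay inside the WT range. Both Het values lay above it, the lower by less than the rounding shown (18.32 in Het 2, 18.27 in WT 3). Only reported peaks enter, so low values are missing by construction and no test was run.

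Homo 1 and Het 3, which lacked the Snai1 peak, were not the shallowest libraries. Their backgrounds of 0.914 and 0.738 were above the 0.464 of Homo 2, and the smallest pileup either list reported was 7 tags. Homo 1 listed 3888 rows and Het 3 listed 2598, while libraries of similar background listed more, with 5817 rows in Het 1 (0.696) and 6759 in WT 3 (0.985). These are also the libraries in which 0 of the 8 genes had a peak. The part of list length in the missing Snai1 peaks was not tested.

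**Figure D3:**
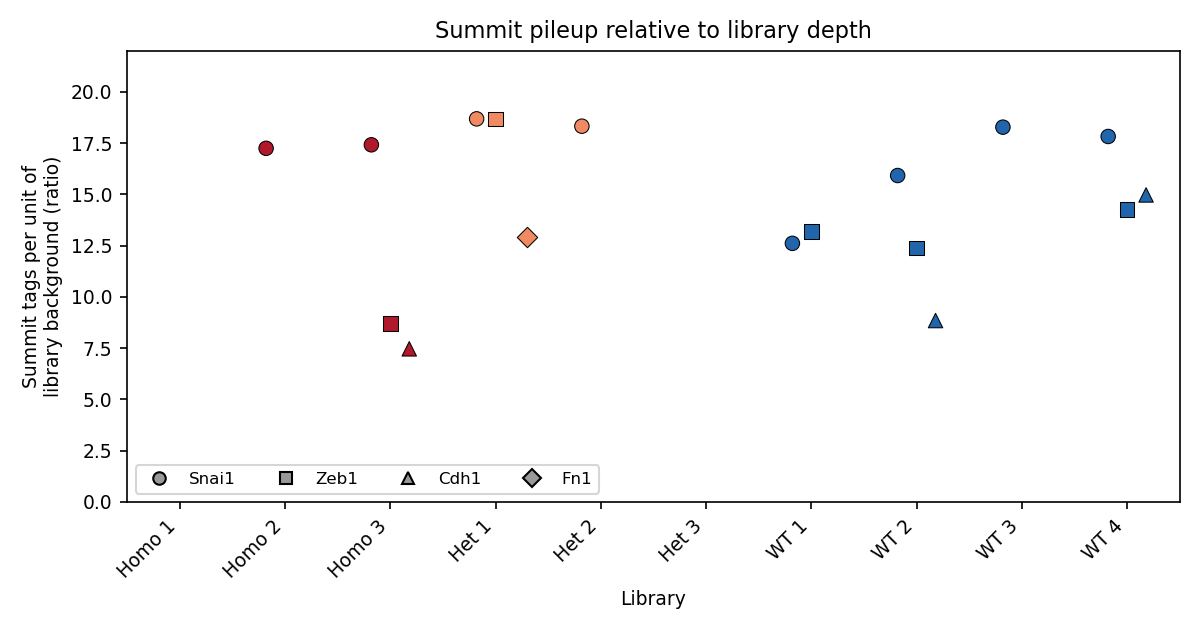
Tags at the summit divided by the genome background of the library (vertical axis, a ratio without unit) for every peak at a member gene, by library (horizontal axis, Homo, Het, then WT). Circles are Snai1, squares Zeb1, triangles Cdh1 and the diamond Fn1, and a library without a symbol reported no peak. Snai1 lies between 12.6 and 18.7 in all 8 libraries, while Zeb1 and Cdh1 in Homo 3 lie at 8.71 and 7.46.

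Zeb1, a zinc finger and homeobox repressor of epithelial genes, had a peak in 1 of 3 Homo, 1 of 3 Het and 3 of 4 WT libraries (mm10, chromosome 18, gene 5591327 to 5775468). The fold was 4.34 in Homo 3, 6.54 in Het 1, and 6.15, 5.60 and 6.77 in WT 1, WT 2 and WT 4. Rows spanned 5591716 to 5592005 in Homo 3, 5591380 to 5591817 in Het 1, 5591385 to 5591863 in WT 1, 5591429 to 5591870 in WT 2 and 5591385 to 5591965 in WT 4. The rank percentile was 2.04 in Homo 3, 39.9 in Het 1, and 46.6, 15.4 and 54.7 in those WT lists. The Homo 3 peak was the weakest by fold, rank and height relative to depth (8.71, against 18.7 in Het 1 and 13.3 ± 0.942 in WT, SD, n = 3). Its summit lay 569 bp into the gene, and those of the other 4 lay 143 to 399 bp in.

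These Zeb1 rows also lie inside Gm10125, a long noncoding RNA gene at 5491501 to 5592437 that overlaps the lower end of Zeb1. ATAC-seq reads carry no strand, so the peak cannot be assigned to either gene. A separate region with summits 44345 to 44461 bp beyond the upper end of Zeb1, outside the 10 kb window, was called in 1 of 3 Homo (Homo 3), 1 of 3 Het (Het 2) and 4 of 4 WT libraries. No coding gene end in the table was nearer to it than that of Zeb1. Its fold was 6.07 in Homo 3, 6.65 in Het 2, and 5.92, 8.26, 8.26 and 7.69 in WT.

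Cdh1 encodes E-cadherin, the adhesion protein of epithelial junctions that Snail and ZEB proteins repress. It had a peak in 1 of 3 Homo, 0 of 3 Het and 2 of 4 WT libraries (chromosome 8, gene 106603350 to 106670247). At its lower coordinate, peaks spanned 106603264 to 106603538 in Homo 3, with a fold of 4.04, and 106603215 to 106603477 in WT 4, with a fold of 6.43. The WT 2 peak was a different region, 106633477 to 106633686, 30196 bp into the gene, with a fold of 5.09. The rank percentile was 0.348 in Homo 3, 2.38 in WT 2 and 52.9 in WT 4. The peaks of Homo 3 and WT 2 were thus among the weakest of their lists, and WT 4 was the only library with a mid-ranking Cdh1 peak.

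Fn1, which encodes the matrix and plasma protein fibronectin, had a peak in 0 of 3 Homo, 1 of 3 Het and 0 of 4 WT libraries. It spanned 71653040 to 71653297 on chromosome 1 in Het 1, with a fold of 5.88, 9 tags at the summit and a rank percentile of 13.0. It overlaps the upper coordinate of Fn1 (71585473 to 71653280) and ends 38 bp before the noncoding gene Apol7d begins at 71653335. Het 1 thus reported 3 of the 8 genes, though its background was 0.696.

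Vim, which encodes the mesenchymal intermediate filament vimentin (chromosome 2, 13574311 to 13582826), had no peak within 10 kb in any library. Snai2, which encodes the Snail relative Slug (chromosome 16, 14705852 to 14709395), Zeb2 (chromosome 2, 44983512 to 45117442), and Twist1, a basic helix-loop-helix factor (chromosome 12, 33957671 to 33959831), had none either. Zeb2 and its 10 kb flanks were without a row although the gene is 133931 bp long. A missing row says that no peak reached the threshold of the list, not that the promoter was closed. Over all protein-coding genes, 44.5% had no peak in any of the 10 libraries, 40.2% had one in at least 5 and 19.7% in at least 8.

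Beyond 10 kb the neighbourhood of several members held peaks at other genes. The nearest region outside the window had its summits 12852 to 13005 bp beyond the upper end of Cdh1, at the lower end of Tango6, and was called in 1 of 3 Homo, 0 of 3 Het and 4 of 4 WT libraries. Every row inside the window overlapped its gene, apart from those of Snai1 in Homo 2 and WT 2, which ended 10 and 33 bp before it. At 28312 to 28441 bp below the lower end of Fn1, a peak at the end of Atic was called in 2 of 3 Homo, 2 of 3 Het and 4 of 4 WT libraries. At 29756 to 29834 bp below Vim, a peak at the end of Trdmt1 was called in Homo 3, Het 1 and WT 1. Below Snai1, summits at 34495 to 35011 bp were called in Homo 3, Het 1, WT 1, WT 2 and WT 4. The nearest coding gene end, that of Spata2, lay 9946 to 10462 bp from them. Further below Snai1, at 45272 to 45307 bp, a peak at the end of Rnf114 was called in Homo 3, Het 2 and all WT libraries. Twist1, Snai2 and Zeb2 had no row within 50 kb.

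The comparison of Homo with WT tumours concerns accessibility at these genes when both Arid1a alleles are floxed and Cre is present. Members with a peak numbered 0, 1 and 3 in Homo 1 to Homo 3, and 2, 3, 1 and 3 in WT 1 to WT 4, that is 1.33 ± 1.53 in Homo (SD, n = 3) and 2.25 ± 0.957 in WT (n = 4). The groups overlapped, and the difference of -0.917 genes was smaller than the SD of either group. None of the 8 genes was called in every library of one group and none of the other, a pattern found at 0.00462% of all genes for Homo without WT and at 0.125% for WT without Homo. By Fisher's exact test, two-sided, Snai1 had p = 0.429 and Zeb1 p = 0.486, and the other members p = 1. With 3 against 4 libraries this exact test cannot go below 0.0286. Benjamini-Hochberg adjustment over 21631 genes gave 1 for each of the 8. Over all genes 0 passed after adjustment, and 28 had an unadjusted Fisher p under 0.05, 0 of them members.

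The same count was 22.7%, 10.6% and 49.2% of all protein-coding genes in Homo 1 to Homo 3, and 48.1%, 44.7%, 38.2% and 45.3% in WT 1 to WT 4. Means were 27.5% ± 19.8 in Homo (SD, n = 3) and 44.1% ± 4.17 in WT (n = 4), against 16.7% ± 19.1 of the 8 members in Homo and 28.1% ± 12.0 in WT. The members stood below the share of all genes in both groups. Homo 3, whose list of 9618 rows was the longest, had as many members with a peak as WT 2 and WT 4. Without Homo 3 the difference between Homo and WT was -1.75 genes, and without Homo 1 it was -0.25.

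**Figure D4:**
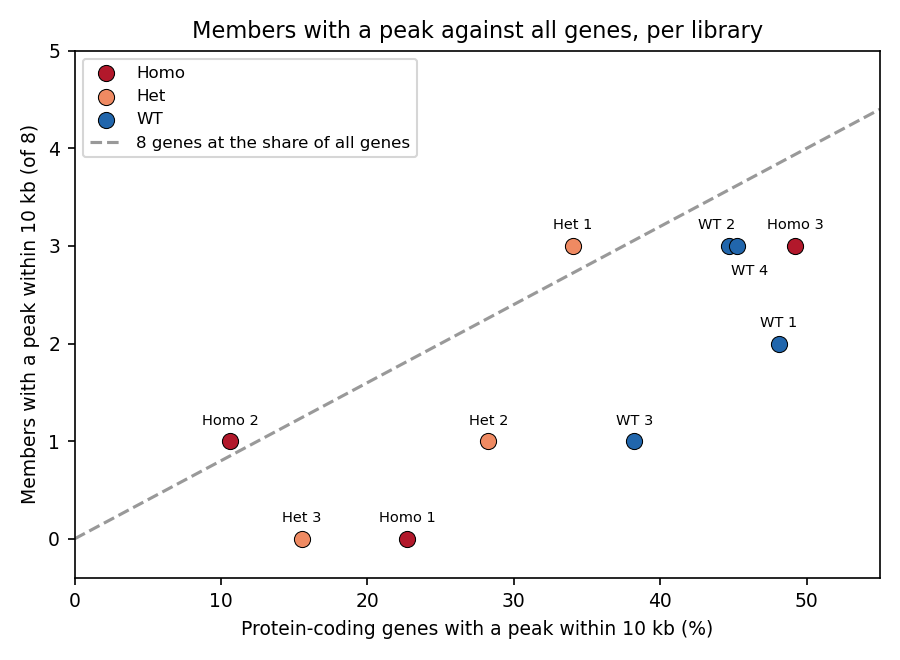
Number of the 8 members with a peak within 10 kb (vertical axis) against the percent of all protein-coding genes with one (horizontal axis), 1 point per library coloured as Homo, Het or WT. The dashed line is where 8 genes would stand at the share of all genes, and 8 of the 10 libraries lie below it. Het 1 and Homo 2 lie above it.

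Het and WT were compared for the same question with 1 floxed allele. Members with a peak numbered 3, 1 and 0 in Het 1 to Het 3, a mean of 1.33 ± 1.53 (SD, n = 3), against 2.25 ± 0.957 in WT (n = 4), and again the groups overlapped. None of the 8 genes separated them, while 2.55% of all genes had a peak in every WT and no Het library and 0.00462% the reverse. Fisher's exact p was 0.429 for Snai1, Cdh1 and Fn1 and 0.486 for Zeb1, with Fn1 the member reported more often in Het. The adjusted p over all genes was 1 for each of the 8. Over all genes 0 passed after adjustment, and 553 had an unadjusted Fisher p under 0.05, 0 of them members. The share of all genes was 34.1%, 28.3% and 15.5% in Het 1 to Het 3, below every WT library. Without Het 1 the difference in members was -1.75 genes, and without Het 3 it was -0.25.

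The last comparison, Homo with Het, concerns the second Arid1a allele. Both averaged 1.33 ± 1.53 members (SD, n = 3 each), and Snai1 (2 of 3 in each) and Zeb1 (1 of 3 in each) were called equally often. None of the 8 genes separated the groups, against 0.217% of all genes with a peak in every Homo and no Het library and 0.0231% for the reverse. Fisher's exact p was 1 for each of the 8, and 0.1 is the smallest that 3 against 3 libraries allow.

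Other genes of the transition gave a background for these 8. Of all protein-coding genes, 55.5% had a peak in some library. Their mean share per library was 27.5% in Homo, 25.9% in Het and 44.1% in WT, and each list is set beside these values. Among 13 further transcription factors, 6 had a peak in some library, with 0 to 5 members in Homo, 1 to 5 in Het and 5 to 6 in WT libraries. Their mean shares were 17.9%, 20.5% and 42.3%. Snai3, the third Snail family gene, had a peak at its upper end in 2 of 3 Homo, 2 of 3 Het and 4 of 4 WT libraries, with folds from 5.36 to 7.36. The counts equal those of Snai1, but the libraries differ, since Homo 1 and Het 3 reported Snai3 and Homo 2 and Het 2 did not. Tcf3, which encodes E-box binding proteins, had one in 1 Homo, 3 Het and 4 WT libraries, of which the Het 3 row lay 104 bp from the end of Mbd3. In the same order of groups, Foxc2 had one in 2, 1 and 4 libraries and Runx2 in 1, 1 and 4. For Foxc2 and Runx2 the nearest coding gene end was that of Mthfsd and Supt3.

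A further list holds corepressors and pathway partners through which these repressors act. All 12 of its genes had a peak in some library, against 55.5% of all protein-coding genes, and it held 2 to 9 of them in Homo, 4 to 10 in Het and 10 to 11 in WT libraries. The mean shares were 52.8%, 61.1% and 87.5%. Kdm1a, a histone demethylase that Snail recruits, had a peak in 3 of 3 Homo, 2 of 3 Het and 4 of 4 WT libraries. Ezh2, the methyltransferase of Polycomb complex PRC2, and Sin3a, a corepressor scaffold, each had one in 2 of 3 Homo, 3 of 3 Het and 4 of 4 WT libraries. For Sin3a the Homo 1 row lay 382 bp from the end of Man2c1, which leaves 1 of 3 Homo libraries with a row nearest to Sin3a. Yap1, the Hippo pathway coactivator, had one in 1 of 3 Homo, 0 of 3 Het and 4 of 4 WT libraries (Fisher's exact p = 0.0286 between Het and WT, adjusted p = 1).

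Of 20 genes of the TGF-beta, Notch and hypoxia pathways that induce the transition, 17 had a peak in some library, with 3 to 14 in Homo, 3 to 11 in Het and 13 to 16 in WT libraries. The mean shares were 46.7%, 40% and 73.75%, against 27.5%, 25.9% and 44.1% of all protein-coding genes. Skil, an inhibitor of SMAD proteins, had one in all 10, its relative Ski in 9, and the signal transducer Smad3 in 9. Smad7, the inhibitory SMAD, was called in 2 of 3 Homo, 0 of 3 Het and 4 of 4 WT libraries (Fisher's exact p = 0.0286 between Het and WT, adjusted p = 1). Smad7 and Yap1 were the genes on these lists that separated any pair of groups, in a comparison where 2.55% of all genes did.

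On the epithelial side, 9 of 12 regulators and 12 of 21 junction and keratin genes had a peak in some library. The regulators numbered 1 to 9 in Homo, 0 to 7 in Het and 8 to 9 in WT libraries, and the junction and keratin genes 1 to 11, 4 to 8 and 9 to 11. Mean shares were 38.9%, 33.3% and 72.9% for the regulators, and 23.8%, 30.2% and 46.4% for the junction and keratin genes. All protein-coding genes, at 27.5%, 25.9% and 44.1%, were highest in WT too. Elf3, an epithelial ETS factor, had a peak at its upper end in 2 of 3 Homo, 2 of 3 Het and 4 of 4 WT libraries, with folds from 6.03 to 9.94. Ctnnb1, which encodes beta-catenin, the partner of E-cadherin at the junction, had one in 2 of 3 Homo, 3 of 3 Het and 4 of 4 WT libraries.

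The mesenchymal and matrix list was sparse. Of 24 genes 6 had a peak in some library, with 1 to 4 in Homo, 3 to 4 in Het and 2 to 4 in WT libraries. The mean shares were 11.1%, 15.3% and 11.5%, against 27.5%, 25.9% and 44.1% of all protein-coding genes. Cd44, a hyaluronan receptor, had a peak inside the gene in all 10 libraries (chromosome 2, 102829277 to 102829550), with folds from 11.7 to 17.5. Its rows began between 102829277 and 102829284 and ended between 102829548 and 102829550 at every library depth. The Snai1 rows, by contrast, began anywhere from 167537846 to 167537986. Why the Cd44 rows had so fixed an extent was not tested, so they are not read as opening of the gene. Itgb1, an integrin subunit, had one in 9 libraries and Itgav, another, in 0 of 3 Homo, 2 of 3 Het and 2 of 4 WT. Cdh2 encodes N-cadherin, which often replaces E-cadherin in the transition, and it had a peak near its upper end in 1 of 3 Homo, 2 of 3 Het and 0 of 4 WT libraries. Its folds were 5.25 and 3.99 for a pair of rows in Homo 1, 5.80 in Het 2 and 5.70 in Het 3. The Cdh2 difference did not pass a test (Fisher's exact p = 0.429 for Homo against WT and 0.143 for Het against WT, adjusted p = 1 for both).

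**Figure D5:**
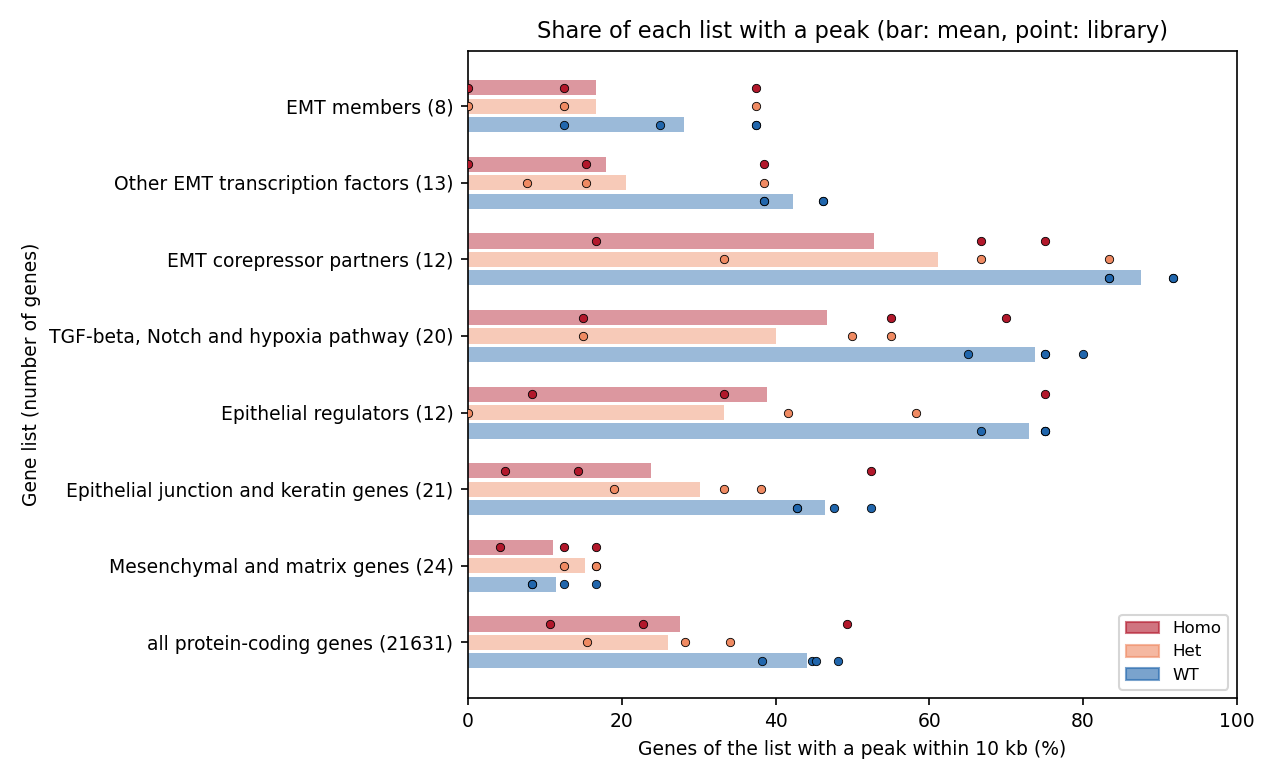
Percent of the genes on each list with a peak within 10 kb (horizontal axis), by list (number of genes in brackets). Bars are means over libraries and points single libraries, ordered Homo, Het, WT within a list. The 8 members and the mesenchymal and matrix genes lie below all protein-coding genes in every group, and the corepressor partners above them.

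Markers of cell types were read in the same way. Of 10 hepatocyte markers 6 had a peak in some library, against 55.5% of all protein-coding genes. They numbered 0 to 5 in Homo, 1 to 2 in Het and 2 to 6 in WT libraries. Their mean shares were 20%, 13.3% and 40%, against 27.5%, 25.9% and 44.1% of all protein-coding genes. The share was below that of all genes in each group, so these counts do not identify the tissue. Cebpa, the hepatocyte marker seen most often, had a peak in 2 of 3 Homo, 3 of 3 Het and 4 of 4 WT libraries. Alb had one in Homo 3 and 1 WT library. All 8 stellate cell and fibroblast markers were at 0 in all 10 libraries. Of 8 endothelial markers 1, Eng, had a peak, in 0 of 3 Homo, 1 of 3 Het and 2 of 4 WT libraries, and it lay nearer the end of Fpgs. Macrophage and leukocyte markers with a peak numbered 1 to 3 of 8 in Homo, 1 to 2 in Het and 2 in each WT library. Of these Cd68 and Cd79a had peaks nearer other coding genes, and Spi1 had its own in Homo 3. Of 8 cholangiocyte markers 3 had a peak, with 0 to 1 in Homo, 0 in Het and 0 to 2 in WT libraries. The mean shares of these other marker lists were also below those of all protein-coding genes in each group. The part of cell mixture in the member counts was not tested.

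For each member seen in 3 to 9 libraries, genes with the identical pattern of presence over the 10 libraries were counted. For Snai1 there were 183, with Acvr2b, Arf1 and Ccdc115 closest in rank percentile (mean absolute differences of 10.8, 11.3 and 11.5 points over 8 libraries). For Zeb1 there were 178, led by Sec31b, Frmd5 and Hps1 (7.40, 11.5 and 11.7 points over 5 libraries). For Cdh1 there were 58, led by Fbxo22, Btbd3 and Dact2 (2.86, 7.50 and 7.82 points over 3 libraries).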

How the data were processed

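ATAC-seq was run on 10 frozen liver tumour pieces, with 1 narrowPeak list deposited per library. Bowtie2, MACS2, deepTools and mm10 are named in the submitters' processing notes, without versions. How peaks were called and reads filtered was not given in the sources used here. The deposited rows hold a fold (a ratio of summit pileup to local background), −log10 p and −log10 q values and a score, all the authors' own.

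Rows were placed on genes of the RefSeq table (GRCm38.p6, the assembly behind mm10), which has no strand, so gene ends are called lower and upper. Rank percentiles used −log10 p. For 100% of rows a whole-number summit pileup and a Poisson mean were found that return the fold and −log10 p to within 0.001. Library depth was taken as the lowest background value that 10 or more rows shared. It differed by up to 3.76-fold and was not checked against read numbers.

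Presence was tested per gene with Fisher's exact test (scipy 1.17.1) over 21631 protein-coding genes with Benjamini-Hochberg adjustment (statsmodels 0.14.6), after tests on simulated data. Replicates may be technical, so p-values cover only the spread among these libraries. The 8 members and the 12 gene lists (152 entries with the members) were chosen with earlier results of these data known, and no list was tested. Up to 4 genes per list were named: those separating a pair of groups, then those with peaks in most libraries. Alb and the microRNA genes were picked after their values were seen. Alternatives were other windows (inside the gene, 1 kb, 50 kb), a −log10 p of at least 10, lists of equal length, pileups scaled to the shallowest library, at least 50% of a row in the window, each library left out, and a replicate block.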

Additional observations from a re-analysis of the deposited data

How the results depend on the processing

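The difference in members with a peak was -0.917 genes for Homo minus WT and for Het minus WT, and 0 for Homo minus Het. Under each alternative run it moved by less than the SD of the Homo and Het libraries (1.53 genes). With the 50 kb window (both differences from WT) and with lists of equal length (Homo minus WT) it moved by more than the SD of the WT libraries (0.957). It was -1.92 for Homo minus WT and for Het minus WT with a 50 kb window. With pileups scaled to the shallowest library it was -1.08 and -0.417, with a −log10 p of at least 10 it was -1.42 and -0.75, and among the 1763 strongest rows of each list it was 0.0833 and -0.25, so the Homo minus WT sign did not hold there. Leaving out each library gave -1.75 to -0.25 for Homo minus WT, the same range for Het minus WT, and -0.833 to 0.833 for Homo minus Het. None of the 8 genes separated a pair of groups, except that 1, Cdh1, separated WT from Het with the 50 kb window, which reaches the end of Tango6. With scaled pileups Snai1 kept all 8 of its libraries, Zeb1 had 3 (0 Homo, 1 Het, 2 WT), Cdh1 had 1 (WT 4) and Fn1 had 1. Among the 1763 strongest rows Snai1 was left in Homo 2, whose list was not shortened, and in WT 4, and the other members in none. Over all genes the number separating Homo from WT was 28, and 2679 without Homo 3. For Het and WT it was 553, and 1549 without Het 1, 986 without Het 2 and 978 without WT 3. For Homo and Het it was 52, and 88 to 449 with any 1 library left out. With scaled pileups these were 85, 159 and 53, and among the 1763 strongest rows 31, 101 and 88. The cause was not tested.

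The titles number replicates in every group. Pairing libraries with the same number (the replicate block, WT 4 left out) gave -0.667 genes for Homo minus WT, -0.667 for Het minus WT and 0 for Homo minus Het. Deviations of same-numbered libraries from their group means correlated between -0.0899 and 0.0138, and 0 of 9 pairs correlated best with their own number. Deviations from a mean of so few libraries depend on one another. The check therefore cannot show whether same-numbered libraries share more than a number. With lists of peaks, depth limits what a missing row can show: the smallest reported pileup was 6 to 10 tags.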

Other observations

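The microRNA genes of the miR-200 family, which hold ZEB mRNAs in check, were looked at after the lists had been seen. Mir200a, Mir200b and Mir429 had no peak within 10 kb in any of the 10 libraries. For Mir200c and Mir141 (chromosome 6, 124718322 to 124718390 and 124717914 to 124717985) a peak was reported in 8 libraries, no nearer than 5643 bp to the start of either, and the coding gene ends nearest to it were those of Emg1 and Phb2. Among microRNA genes outside that family, Mir34a, Mir34b, Mir34c and Mir205 had none. Mir203 had a peak in WT 1 and in WT 2, no nearer than 348 bp to its start. The coding gene end nearest to the Mir203 peaks was that of Aspg.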
